A study of Homo sapiens with 18 samples.

Results

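The p50 knockout was set directly against the RelB knockout in GM12878, an Epstein-Barr virus-transformed human lymphoblastoid B-cell line, with 3 libraries in each group, 6 of the 18 libraries of the series. Members are these 6 libraries, chosen by their labels alone, together with the 12381 genes of 17155 whose mean normalised read count over all 18 libraries was at least 10. The p50 knockout carried guides against NFKB1, the RelB knockout carried guides against RELB, and the 3 control libraries, used here as the level both are read against, carried a control guide that targets no gene. All 9 libraries share lentiviral delivery, puromycin at 3 µg/ml for 5 days and an LMP1 genotype labelled wildtype, and the labels say that each knockout was checked by immunoblot. The sources used here do not say if a line is 1 clone or a pool, or at which step the replicates, called biological, were separated. The p-values therefore measure the spread between libraries only, which the limma fit estimates from all 18 libraries of the series. Polyadenylated RNA was sequenced to 24.4, 20.3 and 26.6 M gene-assigned reads in p50 knockout libraries 1 to 3, 15.2, 23.1 and 22.0 M in the RelB libraries, and 20.9, 23.5 and 37.5 M in the controls.

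NF-kB proteins bind DNA as dimers of 5 subunits. The p50 subunit is cut from the longer product of NFKB1, lacks an activation domain of its own, and acts through partners such as RelA or cRel, through IkB-family coactivators, or as a repressive homodimer. RelB is the activating subunit of the noncanonical pathway, in which NIK and IKK alpha promote processing of p100 to p52 and release of RelB:p52 dimers. In lymphoblastoid cells the viral protein LMP1, a mimic of an active CD40 receptor, keeps both pathways on.

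As a check on the labels, transcripts of the targeted genes come first. NFKB1 (ENSG00000109320) had 4748, 4666 and 4640 normalised read counts in p50 knockout libraries 1 to 3, against 5779, 5865 and 5738 in the RelB libraries, and 7418, 6895 and 6885 in the controls. The p50 knockout libraries were the lowest and no groups overlapped. The log2 fold change of the p50 knockout over the RelB libraries was -0.31 (SE 0.06, adjusted p = 2.2e-04 by limma). RELB (ENSG00000104856) had 3931, 4069 and 3682 normalised read counts in the p50 knockout, against 4218, 4192 and 3911 in the RelB libraries, and 3422, 3137 and 3400 in the controls. RELB was thus higher than in the control in the RelB libraries (log2 fold change 0.31, adjusted p = 1.7e-04 by limma). It was also higher than in the control in the p50 knockout (0.23, adjusted p = 6.3e-03 by limma). NFKB1 was lower than in the control in the p50 knockout (-0.59, adjusted p = 3.1e-07 by limma) and also in the RelB libraries (-0.29, adjusted p = 2.8e-04 by limma). RELB did not pass the test between the p50 knockout and the RelB libraries (-0.08, SE 0.06, adjusted p = 0.31 by limma). Insertions and deletions made by CRISPR need not lower an mRNA, so this check decides neither label. The RelB group is written as RelB-labelled below. Every direction given here as p50 knockout over RelB-labelled rests on both labels.

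Of the other subunit genes, NFKB2, which encodes p100 and p52, was lower in the p50 knockout, with 8777, 9328 and 8746 normalised read counts against 11210, 10994 and 10381 in the RelB-labelled libraries (-0.28, SE 0.06, adjusted p = 2.8e-04 by limma). RELA did not pass (-0.04, SE 0.06, adjusted p = 0.61 by limma). REL, which encodes cRel, had 1154, 1065 and 1078 normalised read counts in the p50 knockout, against 924, 1009 and 881 in the RelB-labelled libraries, and 1554, 1717 and 856 in the controls. The groups of knockouts did not overlap, but REL did not pass the test (0.23, SE 0.19, adjusted p = 0.31 by limma). It passed when only the 6 libraries compared were fitted, with adjusted p = 0.011.

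The p50 knockout and the RelB-labelled libraries differed in the majority of expressed genes. Of 12381 genes tested, 6575 passed limma at an adjusted p of 0.05 (53.1%). In the p50 knockout 3433 of these were higher (27.7%) and 3142 were lower (25.4%). A difference of 2-fold or more was found in 742 called genes, 233 higher and 509 lower in the p50 knockout. That number depends on the filter on low values, being 299 for genes with a mean of at least 100 and 1211 with no filter. The 3 libraries of the groups did not overlap in 7584 genes (61.3%), of which 6349 were also called. The median log2 fold change over all tested genes was 0.01, a value largely set by the scaling of the libraries to a common level. A count test on the recovered reads, edgeR's quasi-likelihood test, called 6606 genes. Since most genes differ, the counts in each gene list below are read beside these shares.

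**Figure D1:**
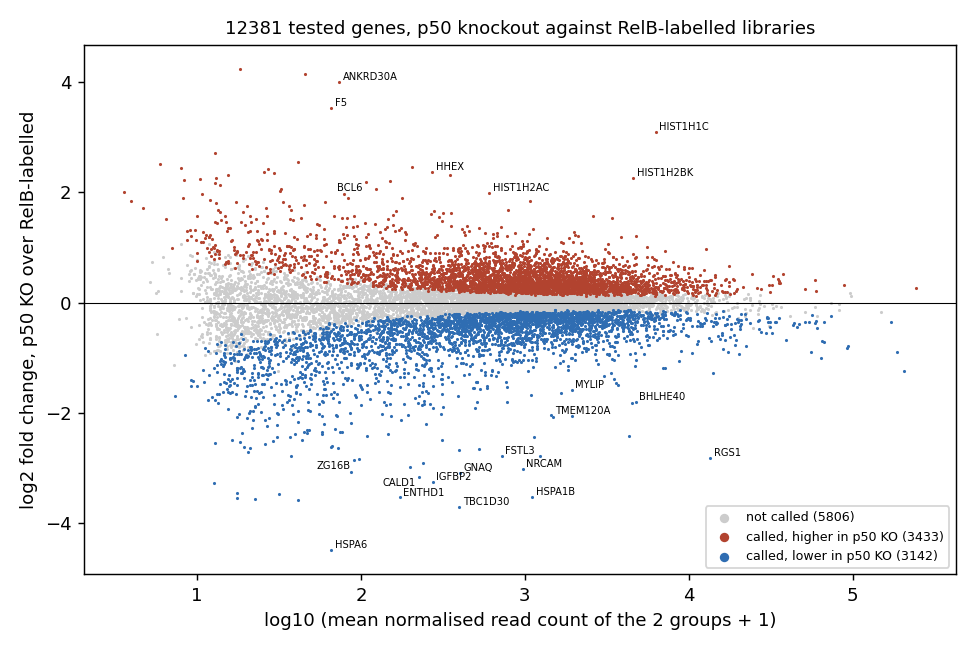
Log2 fold change of the p50 knockout over the RelB-labelled libraries (vertical axis) against the log10 of the mean normalised read count of both groups plus 1 (horizontal axis), 1 point per tested gene, with labels on some of the named genes. Red points are the 3433 called genes higher in the p50 knockout, blue points the 3142 called genes lower in it, and grey points did not pass.

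Each knockout was also read against the control. Against the 3 controls the p50 knockout had 2109 genes higher (17.0%) and 2430 lower (19.6%). Against the same 3 controls the RelB-labelled libraries had 4098 genes higher (33.1%) and 4293 lower (34.7%). Both comparisons share these controls, so their values are given side by side for each gene and no overlap is drawn from them.

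The genes lowest in the p50 knockout were mostly close to control there and far above it in the RelB-labelled libraries. Of the 12 lowest, 8 did not pass between the p50 knockout and control, and all 12 passed as higher in the RelB-labelled libraries than in control. These 12 were chosen by their difference between the knockouts and a mean of at least 100 in the higher group. Their place relative to control therefore partly follows from that choice and is a description only. RGS1, GNG12, FSTL3, BHLHE40, MYLIP and TMEM120A, given beside them, are not among the 12 and were named for their small p. RGS1 (ENSG00000090104), a regulator that shortens signalling from chemokine receptors through G proteins, had 3711, 2839 and 3507 normalised read counts in the p50 knockout, against 26439, 20568 and 23682 in the RelB-labelled libraries, and 3370, 2694 and 3460 in the controls. The p50 knockout overlapped the controls and lay far below every RelB-labelled library. RGS1 was 7.04-fold lower in the p50 knockout than in the RelB-labelled libraries (limma log2 fold change -2.81, SE 0.12, adjusted p = 1.7e-13). GNAQ, a G-protein alpha subunit, had 75.1, 81.1 and 97.2 normalised read counts in the p50 knockout against 720, 710 and 730 in the RelB-labelled libraries and 52.9 to 61.1 in the controls (-3.08, SE 0.15, adjusted p = 4.0e-13 by limma). GNG12, a gamma subunit, had 136, 137 and 158 against 964, 881 and 869, with 135, 121 and 111 in the controls (-2.65, SE 0.11, adjusted p = 9.6e-14 by limma). GNG12 did not pass between the p50 knockout and control (adjusted p = 0.11 by limma), while GNAQ was higher there (0.59, adjusted p = 3.6e-03 by limma).

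FSTL3 (ENSG00000070404), a secreted protein that binds activin, differed from these, because the p50 knockout itself lay below control. It had 160, 229 and 163 normalised read counts in the p50 knockout, against 1126, 1324 and 1314 in the RelB-labelled libraries, and 691, 796 and 802 in the controls. All 3 groups were separate (p50 knockout over RelB-labelled -2.78, SE 0.11, adjusted p = 8.3e-14 by limma). Over control FSTL3 was -2.06 for the p50 knockout and 0.72 for the RelB-labelled libraries on the log2 scale. BHLHE40, a transcriptional repressor of the basic helix-loop-helix family, had the same order at 2269, 1967 and 2135 in the p50 knockout, against 6891, 7759 and 7479 in the RelB-labelled libraries, and 3078, 3816 and 3797 in the controls (-1.80, SE 0.08, adjusted p = 2.3e-13 by limma). MYLIP, a ubiquitin ligase that removes LDL receptors, kept control level in the p50 knockout, at 887, 1016 and 995 normalised read counts, against 2878, 2848 and 2960 in the RelB-labelled libraries and 1007, 965 and 1000 in the controls (-1.59, SE 0.07, adjusted p = 8.3e-14 by limma). TMEM120A was lower in the p50 knockout as well, at 520, 531 and 640 against 2546, 2101 and 2338 in the RelB-labelled libraries (-2.05).

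NRCAM, a cell adhesion molecule best known from neurons, had 236, 185 and 214 normalised read counts in the p50 knockout against 1837, 1674 and 1655 in the RelB-labelled libraries, with 147, 161 and 101 in the controls (-3.02, SE 0.14, adjusted p = 2.6e-13 by limma). CALD1 encodes the actin-binding protein caldesmon and stood at 46.1, 40.0 and 47.4 against 389 to 417, with 21.3 to 31.5 in the controls (-3.17). TBC1D30, a protein with a Rab-GTPase-activating domain, stood at 44.3 to 67.4 in the p50 knockout against 705 to 752, with 14.8 to 23.3 in the controls (-3.71). CALD1, GNAQ, NRCAM and TBC1D30 were above control in both knockouts, more so in the RelB-labelled libraries. The remaining genes of the 12 lowest, ENTHD1 (-3.54), IGFBP2 (-3.25), CDC42EP5 (-3.08), MEGF6 (-2.99), RASAL1 (-2.91) and ZG16B (-2.86), did not pass against control in the p50 knockout.

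HSPA1B, an HSP70 chaperone, had 139, 208 and 167 normalised read counts in the p50 knockout, against 2918, 1768 and 1441 in the RelB-labelled libraries, and 142, 140 and 156 in the controls (-3.52, SE 0.19, adjusted p = 3.5e-12 by limma). HSPA6, another HSP70, had 1.81, 6.32 and 6.53 against 174, 93.7 and 106, with 2.21, 1.97 and 5.17 in the controls (-4.49, SE 0.52, adjusted p = 2.5e-07 by limma). These low values are a few reads each, and with a pseudocount of 5 the HSPA6 difference was -3.70. In the p50 knockout neither gene passed against control (adjusted p = 0.42 for HSPA1B and 0.51 for HSPA6 by limma). RelB-labelled library 1 was the highest of its group in both. HSPA1A (-2.68) and the cochaperone DNAJB1 (-1.0), chosen after their values were seen, were also called lower in the p50 knockout, and RelB-labelled library 1 again was highest, at 3841 for DNAJB1 against 2207 and 1800. HSPA1A and HSPA1B are near-identical copies, so reads may be divided between them in an uncertain way. The constitutive chaperone HSPA8, likewise chosen afterwards, was higher in the p50 knockout, with 35141, 34376 and 37129 against 26320, 30229 and 29071 (0.32, adjusted p = 1.3e-03 by limma).

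Of the 12 genes highest in the p50 knockout, 7 did not pass between the p50 knockout and control, and all 12 passed as lower in the RelB-labelled libraries than in control. These 12 were chosen in the same way as the 12 lowest, so their place relative to control again partly follows from the choice. HHEX, a homeobox transcription factor of germinal-centre and memory B cells, had 470, 438 and 457 normalised read counts in the p50 knockout, against 67.1, 102 and 95.9 in the RelB-labelled libraries, and 567, 557 and 512 in the controls (2.37, SE 0.11, adjusted p = 3.3e-13 by limma). BCL6, the repressor that defines germinal-centre B cells, had 186, 162 and 177 in the p50 knockout against 40.8, 39.2 and 32.7, with 200, 276 and 235 in the controls (2.20, SE 0.15, adjusted p = 7.9e-11 by limma). In both genes the RelB-labelled libraries lay below the other groups without overlap. SORBS2, a cytoskeletal adaptor (1.97), and ST8SIA1, the sialyltransferase that makes ganglioside GD3 (2.07), did not pass between the p50 knockout and control.

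A few genes departed from control in opposite directions. ANKRD30A had 131, 134 and 149 normalised read counts in the p50 knockout, against 7.29, 8.61 and 7.14 in the RelB-labelled libraries, and 64.0, 78.9 and 64.6 in the controls (4.0, SE 0.18, adjusted p = 2.5e-13 by limma). F5, coagulation factor V, had 145, 112 and 103 in the p50 knockout, against 10.2, 7.65 and 10.2 in the RelB-labelled libraries, and 44.1, 44.4 and 37.5 in the controls (3.54, SE 0.22, adjusted p = 3.1e-11 by limma). MRC2, an endocytic collagen receptor, had 271, 233 and 234 against 51.0, 54.5 and 51.0, with 120, 105 and 106 in the controls (2.21, SE 0.11, adjusted p = 8.6e-13 by limma). In ANKRD30A, F5 and MRC2 the controls lay between the knockouts, with no overlap.

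**Figure D2:**
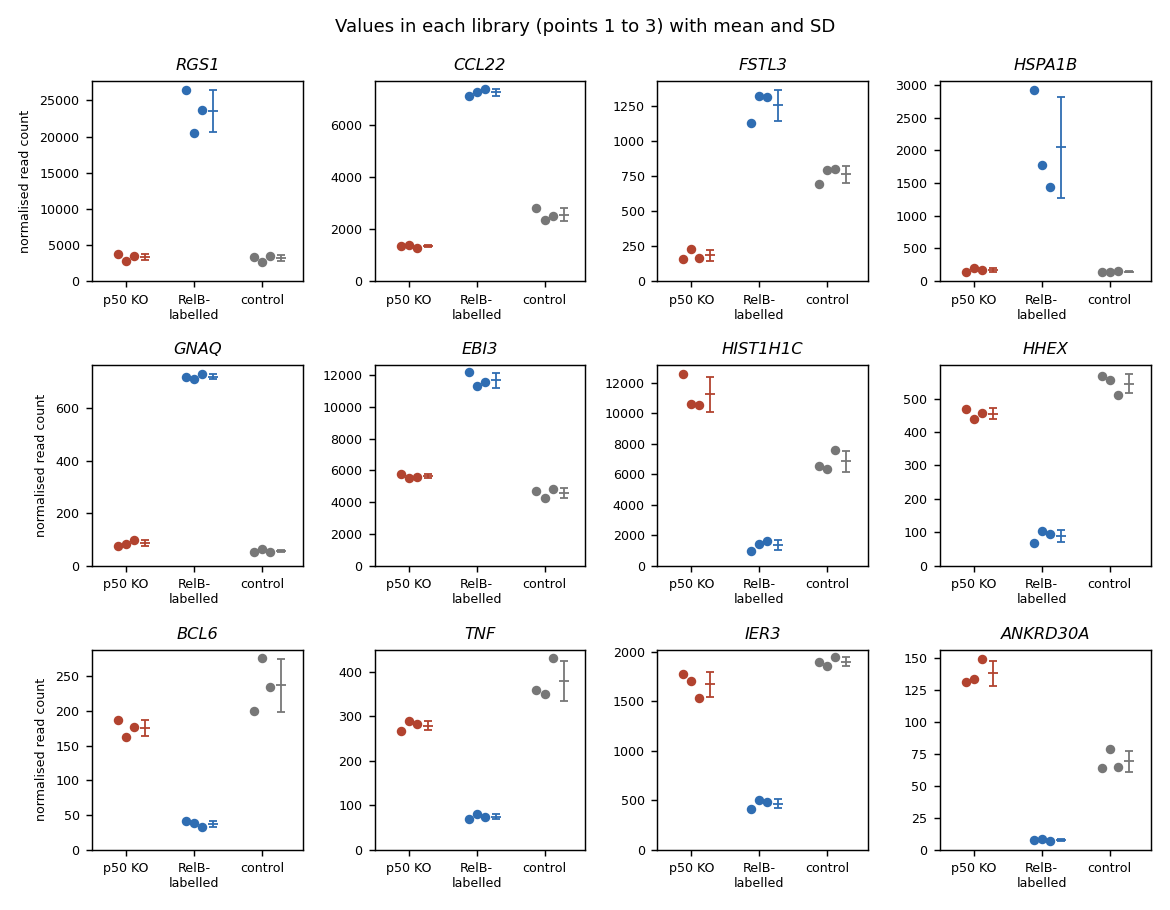
Normalised read counts (vertical axes, each from 0) of 12 named genes in the 3 libraries of the p50 knockout (red), the RelB-labelled group (blue) and the control (grey), with bars for the mean and SD. The p50 knockout overlaps the control in RGS1 and HSPA1B and lies below it in CCL22 and FSTL3.

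Promoters of 5 genes with a kB consensus match are printed here, because the rule named these genes and their levels separate the p50 knockout from the RelB-labelled libraries: RGS1 at chr1:192575523-192575772, CCL22 at chr16:57358533-57358782, CCL20 at chr2:227813592-227813841, BIRC3 at chr11:102317234-102317483 and TRAF3 at chr14:102777199-102777448. All are the 250 bases before the gene's first listed start, on the plus strand of GRCh38.p14 as given by RefSeq, and capitals mark bases matching the kB consensus on either strand.
RGS1: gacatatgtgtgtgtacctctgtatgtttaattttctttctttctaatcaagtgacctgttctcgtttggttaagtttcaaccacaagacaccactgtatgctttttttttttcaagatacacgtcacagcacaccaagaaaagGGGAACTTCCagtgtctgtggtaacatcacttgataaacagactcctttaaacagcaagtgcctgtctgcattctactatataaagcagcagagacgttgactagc
CCL22: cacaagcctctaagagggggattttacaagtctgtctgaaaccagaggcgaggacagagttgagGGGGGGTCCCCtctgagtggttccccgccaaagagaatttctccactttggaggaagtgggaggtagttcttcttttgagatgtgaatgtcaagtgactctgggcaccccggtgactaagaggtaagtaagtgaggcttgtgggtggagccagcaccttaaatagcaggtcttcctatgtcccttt
CCL20: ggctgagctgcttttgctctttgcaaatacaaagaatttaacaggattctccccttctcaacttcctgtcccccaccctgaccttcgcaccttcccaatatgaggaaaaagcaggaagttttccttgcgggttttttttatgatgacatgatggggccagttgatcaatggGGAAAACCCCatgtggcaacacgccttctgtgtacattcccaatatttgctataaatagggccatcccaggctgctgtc
BIRC3: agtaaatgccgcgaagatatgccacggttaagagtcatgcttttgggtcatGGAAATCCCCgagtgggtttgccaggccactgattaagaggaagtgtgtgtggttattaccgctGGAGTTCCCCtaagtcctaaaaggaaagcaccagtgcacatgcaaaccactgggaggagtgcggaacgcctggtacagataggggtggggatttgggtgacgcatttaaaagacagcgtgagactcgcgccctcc
TRAF3: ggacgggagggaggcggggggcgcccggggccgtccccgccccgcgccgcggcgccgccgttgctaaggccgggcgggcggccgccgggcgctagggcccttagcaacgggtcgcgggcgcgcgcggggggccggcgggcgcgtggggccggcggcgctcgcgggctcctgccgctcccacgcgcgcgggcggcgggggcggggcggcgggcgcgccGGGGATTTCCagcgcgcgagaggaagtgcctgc
The capitals in CCL22 hold 2 overlapping matches and BIRC3 has 2 separate ones. A match is a description of letters, not a measured binding site. Such a match stood in 9.57% of all 27305 promoters in the RefSeq table and in 11.7% of the 9332 tested genes with a promoter there. It stood in 10.8% of the genes called higher in the p50 knockout and in 13.3% of those called lower. Among called genes that differed by 2-fold or more it stood in 9.27% of those higher (14 of 151) and 14.3% of those lower in the p50 knockout (47 of 328).

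The inhibitors and feedback genes of NF-kB did not move as one group. Of 15 tested members, 3 were higher and 5 lower in the p50 knockout, with a median log2 fold change of -0.05. TNFAIP3, which encodes the deubiquitinase A20, had 14194, 12154 and 12282 normalised read counts in the p50 knockout, against 21118, 21003 and 19596 in the RelB-labelled libraries, and 13033, 12376 and 11305 in the controls (-0.68, SE 0.08, adjusted p = 2.7e-07 by limma). NFKBIE, which encodes IkB epsilon, had 2413, 2745 and 2326 against 4399, 4222 and 4332, with 2345, 2082 and 2271 in the controls (-0.79, SE 0.07, adjusted p = 8.8e-09 by limma). In both, the p50 knockout was near control and only the RelB-labelled libraries passed against it. NFKBIA, which encodes IkB alpha and is named here after its values were seen, differed from them. It had 3983, 4202 and 3779 in the p50 knockout, against 3895, 4189 and 4169 for the RelB-labelled libraries, which overlapped, and 6812, 6730 and 7313 in the controls. The difference between the knockouts was -0.03 (SE 0.07, adjusted p = 0.69 by limma), while over control NFKBIA was -0.80 for the p50 knockout and -0.77 for the RelB-labelled libraries. ZC3H12A, which encodes the ribonuclease Regnase-1, was higher in the p50 knockout, at 546, 511 and 494 against 331, 406 and 362 (0.50, adjusted p = 6.9e-05 by limma).

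The adaptors and kinases upstream of NF-kB had 6 members higher and 2 lower of 17 tested, with a median of 0.10. BIRC3, which encodes the ubiquitin ligase cIAP2, had 5990, 6370 and 6580 normalised read counts in the p50 knockout, against 11674, 11676 and 11590 in the RelB-labelled libraries, and 7630, 7550 and 7302 in the controls (-0.88, SE 0.06, adjusted p = 4.2e-11 by limma). BIRC2, which encodes cIAP1, was lower in the p50 knockout too (-0.54). TRAF3, the adaptor that with the cIAPs keeps NIK degraded, went the other way, at 6124, 6313 and 6079 in the p50 knockout against 4466, 4499 and 4365, with 5858, 5694 and 5078 in the controls (0.47, SE 0.06, adjusted p = 1.5e-06 by limma). RIPK1, a kinase of TNF receptor complexes, was higher in the p50 knockout at 594, 557 and 569 against 405, 404 and 411 (0.49), although the controls were above both at 690 to 717.

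Chemokines and cytokines included some of the clearest differences. Of 18 tested, 2 were higher and 8 lower in the p50 knockout, with a median of -0.16. CCL22 (ENSG00000102962), which attracts CCR4-bearing T cells, had 1367, 1403 and 1295 normalised read counts in the p50 knockout, against 7110, 7274 and 7379 in the RelB-labelled libraries, and 2831, 2353 and 2494 in the controls. The p50 knockout was below every control and the RelB-labelled libraries above every control (p50 knockout over RelB-labelled -2.42, SE 0.08, adjusted p = 6.5e-16 by limma). CCL20, the ligand of CCR6, had 100, 84.3 and 107 in the p50 knockout against 303, 373 and 365, with 87.7 to 117 in the controls (-1.83, SE 0.15, adjusted p = 1.3e-09 by limma). EBI3, the shared subunit of IL-27 and IL-35, had 5804, 5517 and 5608 against 12241, 11314 and 11559, with 4250 to 4858 in the controls (-1.05, SE 0.06, adjusted p = 1.2e-11 by limma). CSF1 was also lower in the p50 knockout (-0.71).

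Of 10 tested ligands of the TNF family, 3 were higher and 7 lower in the p50 knockout, with a median of -0.44. TNFSF9, which encodes the 4-1BB ligand, had 1111, 1358 and 1162 against 2189, 2233 and 2316 (-0.90), and CD70 had 5106, 5132 and 5163 against 6881, 7093 and 7513 (-0.48). TNF itself (ENSG00000232810) ran against them, with 267, 289 and 282 normalised read counts in the p50 knockout, against 70.0, 80.3 and 73.5 in the RelB-labelled libraries, and 358, 350 and 432 in the controls (1.89, SE 0.11, adjusted p = 5.8e-12 by limma). Both knockouts lay below all controls for TNF, the RelB-labelled libraries further. Among receptors of the family, 4 of 17 were higher and 11 lower in the p50 knockout, with a median of -0.40. TNFRSF14, which encodes the receptor HVEM, had 1815, 2142 and 1873 against 4592, 4694 and 4855, with 1202 to 1374 in the controls (-1.28, SE 0.07, adjusted p = 3.5e-12 by limma). CD27, a memory B-cell receptor for CD70, stood at 48.5 to 53.9 in the p50 knockout against 170 to 179 (-1.75). TNFRSF13B, which encodes the BAFF and APRIL receptor TACI, was higher in the p50 knockout, at 4493, 4518 and 4384 against 2871, 3032 and 2832 (0.62, adjusted p = 2.9e-07 by limma).

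Surface molecules of B-cell activation and costimulation were lower in the p50 knockout in 16 of 20 members and higher in 3, with a median of -0.64. Over control the list's median was 0.16 for the p50 knockout and 0.92 for the RelB-labelled libraries. SLAMF1, a self-ligand receptor on activated lymphocytes, had 4076, 4076 and 4618 normalised read counts in the p50 knockout, against 9388, 9771 and 9955 in the RelB-labelled libraries, and 2989, 2600 and 2966 in the controls (-1.19, SE 0.07, adjusted p = 1.2e-11 by limma). CD274, which encodes PD-L1, had 974, 1055 and 1126 against 2111, 2306 and 2294, with 538 to 654 in the controls (-1.09, SE 0.08, adjusted p = 3.8e-10 by limma). For both genes the p50 knockout stood between control and the RelB-labelled libraries. PDCD1LG2, which encodes PD-L2, differed by -1.62 and overlapped the controls in the p50 knockout. CD83, an activation marker of B cells and dendritic cells, was higher in the p50 knockout, at 5676, 6257 and 5887 against 3258, 3446 and 3488, with 4732 to 5310 in the controls (0.81, SE 0.06, adjusted p = 5.0e-10 by limma).

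Chemokine and homing receptors divided evenly, 6 higher and 6 lower of 13 tested. CXCR4, the receptor for CXCL12, had 1747, 2000 and 2024 in the p50 knockout, against 5359, 4743 and 4944 in the RelB-labelled libraries, and 3095, 3516 and 3806 in the controls (-1.38, SE 0.08, adjusted p = 8.0e-12 by limma). The controls lay between the knockouts without overlap. CCR7, which guides cells to lymph-node T zones, had 9633, 10533 and 10983 against 16289, 16164 and 16072 (-0.64), and GPR183, the oxysterol receptor EBI2, differed by -0.63. Adhesion molecules and integrins had 5 higher and 8 lower of 18 (median -0.13). ITGA5, the fibronectin receptor's alpha chain, was 389, 380 and 368 against 906, 1034 and 939 (-1.34). ITGB7, the beta chain of the gut-homing integrin, was 11583, 10044 and 10025 in the p50 knockout against 6178, 6889 and 6768, with all controls above both at 12213 to 13780 (0.67).

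**Figure D3:**
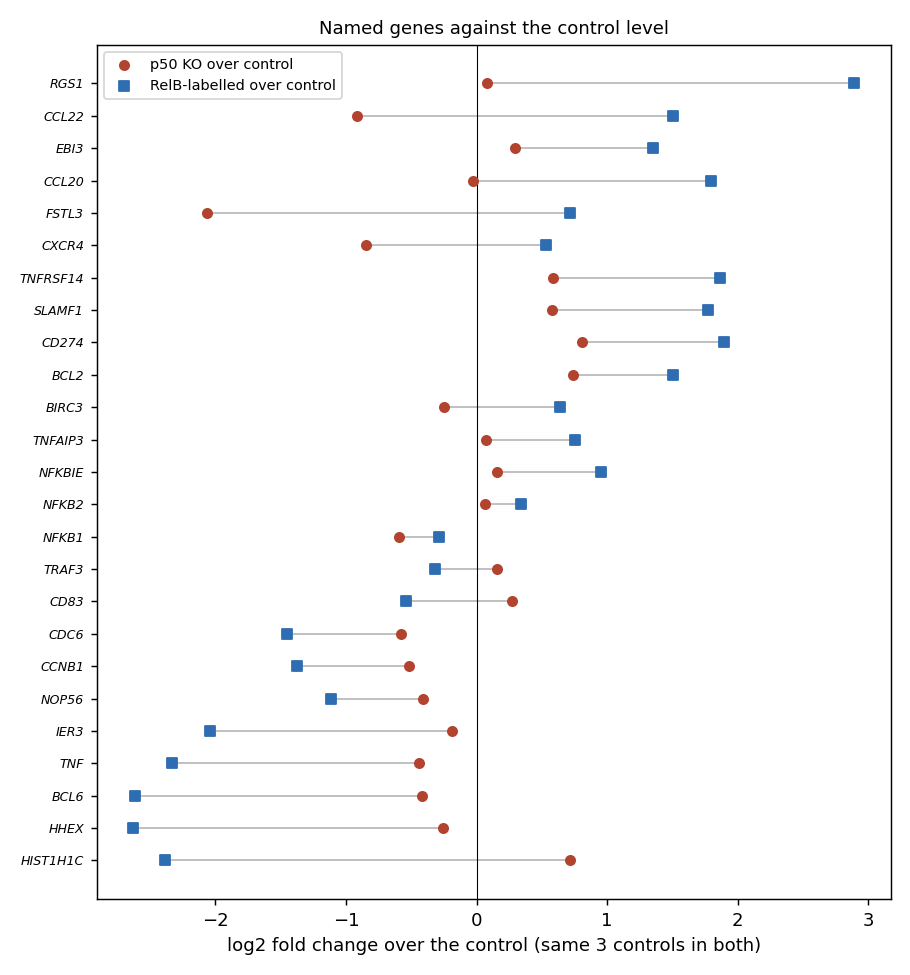
Log2 fold change over the same 3 controls (horizontal axis) for 25 named genes, with red circles for the p50 knockout and blue squares for the RelB-labelled libraries. CCL22, FSTL3, CXCR4 and BIRC3 have the p50 knockout left of 0 and the RelB-labelled libraries right of it, and HIST1H1C, TRAF3 and CD83 have the reverse.

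B-cell identity genes were called in both directions between the knockouts, as were all tested genes (27.7% higher and 25.4% lower). Among B-cell transcription factors 7 were higher and 8 lower of 25 (median -0.02), among B-cell receptor signalling genes 5 and 9 of 26 (0.01), and in the plasma-cell programme 5 and 8 of 21 (0.03). Over control the plasma-cell programme leaned lower in both knockouts. For the p50 knockout 15 were lower and 2 higher (median -0.49), with 19.6% lower over all tested genes. For the RelB-labelled libraries 13 were lower and 4 higher (median -0.36), with 34.7% lower over all tested genes. EBF1, an early B-lineage factor, had 1492, 1448 and 1567 normalised read counts in the p50 knockout against 2369, 2519 and 2377, with 1080 to 1195 in the controls (-0.69, adjusted p = 1.3e-08 by limma). The E-protein inhibitors were higher in the p50 knockout, ID3 at 2735, 2144 and 2042 against 938, 1174 and 1137 (1.09) and ID2 at 2518, 2093 and 2305 against 1306, 1333 and 1326 (0.80). TCF4, itself an E protein, was higher as well (0.75). CD79A, a signalling chain of the B-cell receptor, had 3812, 3710 and 3660 against 5930, 5805 and 6049 (-0.67), while SYK, the kinase it recruits, had 2161, 1917 and 2012 against 1433, 1437 and 1319 (0.54). PRDM1, the plasma-cell regulator Blimp-1, was below control in both knockouts, at 419, 420 and 475 in the p50 knockout, against 315, 284 and 314 in the RelB-labelled libraries, and 830, 979 and 900 in the controls (0.52, adjusted p = 1.3e-04 by limma). SDC1, the plasma-cell surface proteoglycan CD138, was above control in both, at 1705, 1673 and 1694 against 2281, 2344 and 2423, with 889 to 965 in the controls (-0.47).

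Germinal-centre genes divided into 6 higher and 7 lower of 17 tested (median 0.12). HHEX and BCL6 were the highest of them. The BCL2 family and apoptosis regulators had 5 higher and 5 lower of 18 (median 0.05). BCL2, the survival factor, had 3638, 4424 and 4517 against 7012, 7163 and 7133, with 2122 to 2812 in the controls (-0.77, SE 0.09, adjusted p = 2.8e-07 by limma). BCL2L11, the pro-apoptotic BIM, had 1123, 1300 and 1224 against 751, 733 and 691, with 1349 to 1645 in the controls (0.74, adjusted p = 1.8e-06 by limma).

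Proliferation genes were higher in the p50 knockout than in the RelB-labelled libraries almost throughout. All 37 tested genes of DNA replication and S phase were called higher in the p50 knockout (median 0.52). Of 33 mitosis and spindle genes 31 were higher and 0 lower (median 0.64), where NUSAP1 (0.06) and BUB1 (0.15) did not pass. Over control the medians of the S-phase list were -0.39 for the p50 knockout and -0.83 for the RelB-labelled libraries, and those of the mitosis list -0.37 for the p50 knockout and -0.96 for the RelB-labelled libraries. Lower than control were 35 of 37 S-phase genes for the p50 knockout and 37 for the RelB-labelled libraries, and of 33 mitosis genes 30 for the p50 knockout and 33 for the RelB-labelled libraries. CDC6, which loads the replicative helicase, had 1748, 1733 and 1569 normalised read counts in the p50 knockout, against 943, 920 and 888 in the RelB-labelled libraries, and 2376, 2544 and 2626 in the controls (0.87, SE 0.06, adjusted p = 1.1e-10 by limma). CCNB1, cyclin B1, had 3054, 2926 and 3032 against 1760, 1606 and 1620, with 4066 to 4580 in the controls (0.85, SE 0.07, adjusted p = 8.1e-10 by limma). Each was separate in all 3 groups, with the p50 knockout in the middle. FEN1, the flap endonuclease (0.98), GINS3, of the replicative helicase (0.98), and KIF23, a cytokinesis kinesin (0.84), were ordered alike. In bulk RNA, fewer cells in a state and less RNA per cell cannot be told apart.

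Ribosome biogenesis factors had 27 of 29 higher and 0 lower in the p50 knockout (median 0.47), with -0.23 for the p50 knockout over control and -0.69 for the RelB-labelled libraries over control. RRS1, an assembly factor of the large ribosomal subunit, had 1412, 1289 and 1190 against 599, 709 and 594, with 1472 to 1612 in the controls (1.03, SE 0.08, adjusted p = 5.3e-10 by limma). NOP56, a core protein of box C/D snoRNPs, had 6162, 5799 and 5828 against 3657, 3751 and 3527, with 7177 to 8882 in the controls (0.70, adjusted p = 1.1e-08 by limma). MYC, a regulator of growth genes named here after its values were seen, had the opposite order: 9846, 7094 and 7645 in the p50 knockout, against 20173, 19874 and 19308 in the RelB-labelled libraries, and 8017, 7339 and 7983 in the controls (-1.29, SE 0.09, adjusted p = 1.1e-10 by limma). For MYC the p50 knockout overlapped the controls, and the RelB-labelled libraries lay far above both.

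Replication-dependent histone genes had the highest list median, 1.51, with 13 of 15 tested members higher and 0 lower in the p50 knockout. Most such transcripts end in a stem-loop and not a poly(A) tail, so libraries of polyadenylated RNA hold only their polyadenylated part. HIST1H1C (ENSG00000187837), a linker histone, had 12550, 10601 and 10550 normalised read counts in the p50 knockout, against 968, 1434 and 1590 in the RelB-labelled libraries, and 6544, 6341 and 7608 in the controls (3.10, SE 0.14, adjusted p = 2.3e-13 by limma). It was above control in the p50 knockout and below it in the RelB-labelled libraries. HIST1H2BK, a core histone, had 9337, 5584 and 7864 against 1299, 1637 and 1757, with 5647 to 7603 in the controls (2.26, adjusted p = 7.3e-11 by limma), so the p50 knockout overlapped the controls. HIST1H2BC (2.45), HIST1H2BJ (2.31) and HIST1H2AC (1.98) also overlapped the controls in the p50 knockout, and histone genes are close copies whose reads may be divided uncertainly. The list took 0.101% ± 0.0138 of recovered reads in the p50 knockout, 0.0168% ± 0.00291 in the RelB-labelled libraries and 0.0684% ± 0.00618 in the controls (SD, n = 3 each), with p50 knockout against RelB-labelled at p = 0.1 in a two-sided exact permutation test, the smallest that 3 against 3 allows.

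**Figure D4:**
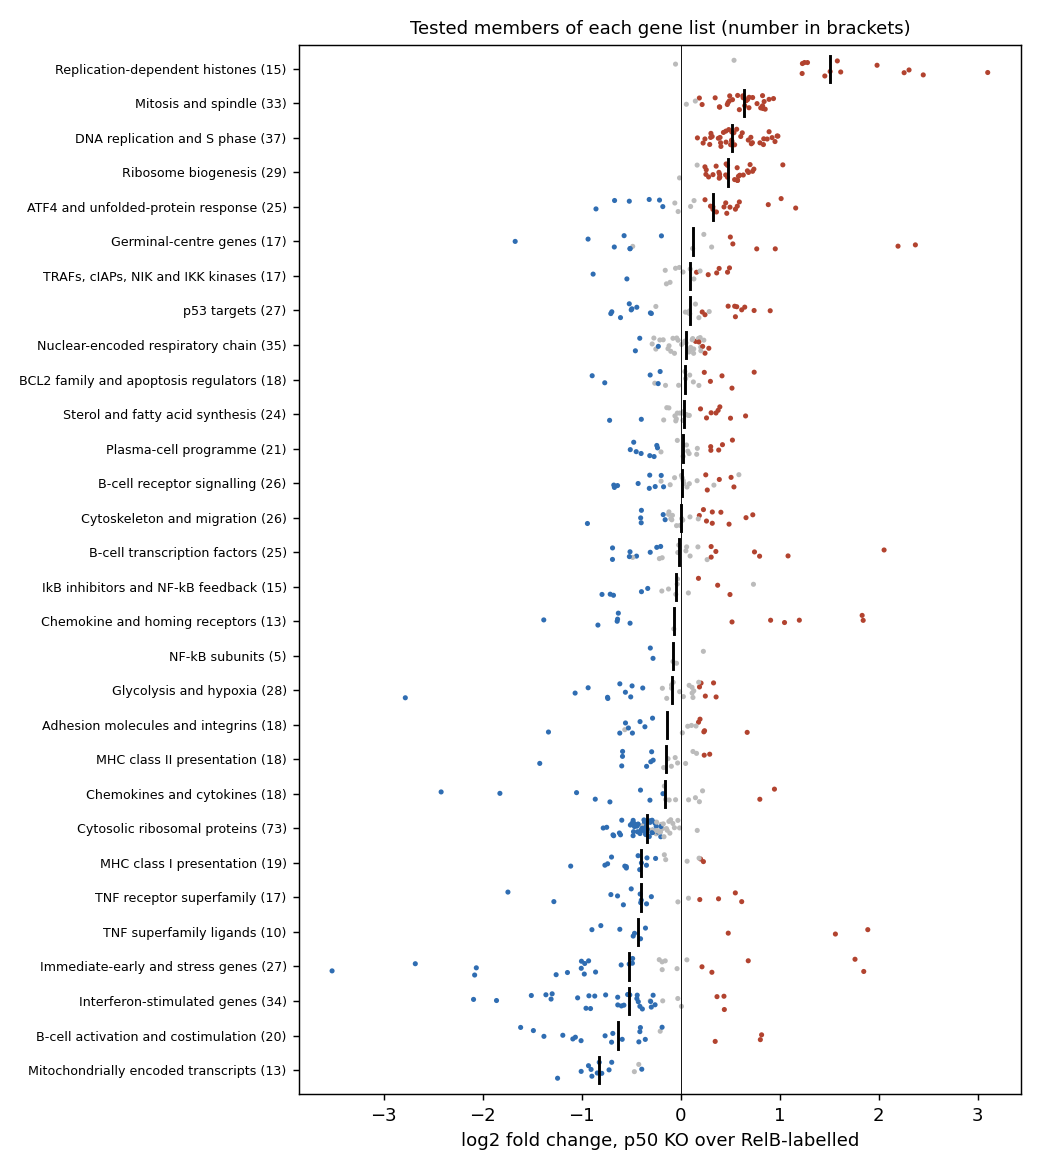
Log2 fold change of the p50 knockout over the RelB-labelled libraries (horizontal axis) for each tested member of 30 gene lists, with red for called higher, blue for called lower, grey for not called and a black bar for the list median. The highest medians are those of the histone (1.51) and mitosis (0.64) lists, and the lowest those of the mitochondrially encoded (-0.82) and costimulation (-0.64) lists, although 3 costimulation members were called higher.

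Interferon-stimulated genes were lower in the p50 knockout in 27 of 34 tested members and higher in 3, with a median of -0.52. Their median over control was -0.31 for the p50 knockout and 0.37 for the RelB-labelled libraries. MX1, an antiviral GTPase, had 2013, 2331 and 2395 normalised read counts in the p50 knockout, against 4458, 4128 and 4200 in the RelB-labelled libraries, and 2709, 2698 and 2722 in the controls (-0.93, SE 0.07, adjusted p = 1.9e-10 by limma). IFITM1, which blocks viral entry, had 309, 266 and 332 against 806, 804 and 979, with 516 to 578 in the controls (-1.51, SE 0.11, adjusted p = 3.8e-10 by limma). In both genes the controls lay between. GBP2, a guanylate-binding protein, was 84.1 to 127 in the p50 knockout against 356 to 386 (-1.86), and EPSTI1 differed by -1.30.

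Class I antigen presentation had 2 higher and 13 lower of 19 in the p50 knockout (median -0.40), and class II had 2 higher and 8 lower of 18 (-0.15). HLA-F, a nonclassical class I gene, had 1741, 1735 and 1794 against 3892, 3579 and 3924, with 1428 to 1777 in the controls (-1.11, SE 0.08, adjusted p = 2.0e-10 by limma). HLA-E, the ligand of NKG2A, differed by -0.55, and TAP1, the peptide transporter, had 2333, 2508 and 2504 against 3362, 3228 and 3302 (-0.43). HLA-DQA1 had 15229, 14355 and 15621 against 24788, 20562 and 23106 (-0.60), and CTSS, the protease that trims the invariant chain, differed by -0.59. HLA-DRA, the most abundant of the class II genes named, had 58589, 56100 and 61522 against 77066, 69288 and 77455 (-0.34, adjusted p = 6.5e-04 by limma). With quantile normalisation its difference was 0.00135 (adjusted p = 0.99 by limma). HLA genes are similar to one another and polymorphic, so reads may be divided uncertainly among them.

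Mitochondrially encoded transcripts had 0 higher and 11 lower of 13 in the p50 knockout, with the lowest list median, -0.82. Over control the list's median was -0.85 for the p50 knockout and 0.08 for the RelB-labelled libraries. MT-ND4, a subunit of complex I, had 159716, 75645 and 143862 normalised read counts in the p50 knockout against 297489, 263996 and 293884 in the RelB-labelled libraries, with 161528, 187199 and 227684 in the controls (-1.24, SE 0.20, adjusted p = 2.3e-05 by limma). The p50 knockout lay below the RelB-labelled libraries throughout, and its library 2 was well below the other 2. Without that library the list median was -0.46. MT-CO1, a subunit of complex IV, differed by -0.90, and by -0.29 with quantile normalisation (adjusted p = 0.032 by limma). These transcripts took 3.55%, 1.85% and 3.30% of recovered reads in the p50 knockout, against 5.22%, 4.77% and 5.34% in the RelB-labelled libraries, and 3.68%, 4.22% and 5.03% in the controls. The nuclear genes of the respiratory chain had 5 higher and 3 lower of 35 (median 0.05). NDUFB5 of complex I was lower (-0.46) and CYC1 of complex III higher in the p50 knockout (0.22, adjusted p = 8.8e-03 by limma), and CYC1 no longer passed without p50 knockout library 1 (adjusted p = 0.057).

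Cytosolic ribosomal protein genes had 0 higher and 50 lower of 73 in the p50 knockout (median -0.34), opposite in direction to the ribosome biogenesis factors. The list's median over control was 0.03 for the p50 knockout and 0.39 for the RelB-labelled libraries. RPL31 had 15632, 15741 and 17950 against 26439, 27514 and 30898, with 14243 to 18953 in the controls (-0.78, SE 0.10, adjusted p = 1.3e-06 by limma). The list took 7.46% ± 0.464 of recovered reads in the p50 knockout, 9.12% ± 0.471 in the RelB-labelled libraries and 6.66% ± 0.666 in the controls (SD, n = 3 each, p = 0.1 for p50 knockout against RelB-labelled in the two-sided exact permutation test). These short transcripts have many pseudogene copies, and the sources used here do not say how reads shared between copies were counted.

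**Figure D5:**
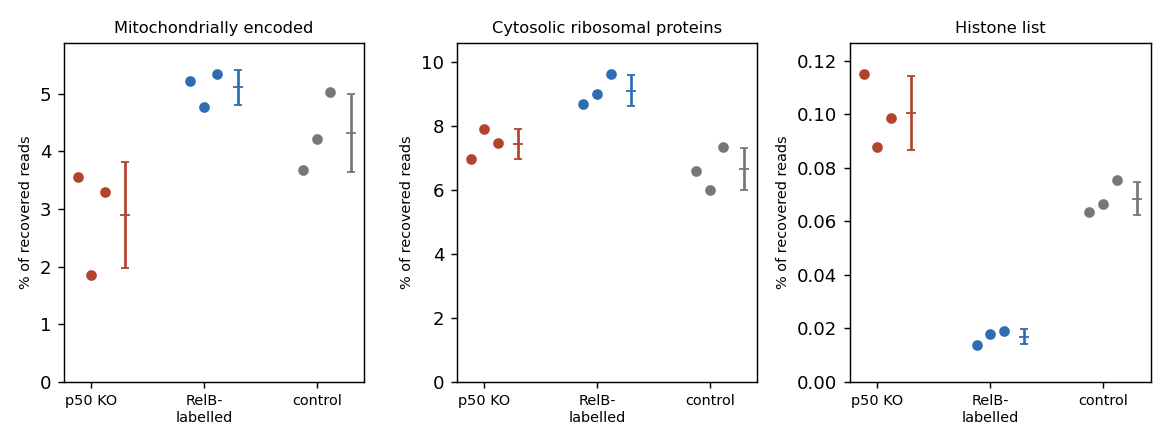
Share of recovered reads in percent (vertical axes, each from 0) taken by mitochondrially encoded transcripts, cytosolic ribosomal protein genes and the histone list in the 3 libraries of the p50 knockout (red), the RelB-labelled group (blue) and the control (grey), with bars for the mean and SD. The p50 knockout lies below the RelB-labelled libraries in the first and second panels and above them in the histone panel.

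Stress and metabolic lists each held called members in both directions, in some lists mostly in 1 direction. Immediate-early and stress genes had 5 higher and 16 lower of 27 (median -0.52). EGR1, an early growth response factor, had 813, 651 and 774 in the p50 knockout against 3278, 3159 and 2906, with 693 to 951 in the controls (-2.06, SE 0.12, adjusted p = 6.8e-12 by limma), and ZFP36, which destabilises cytokine mRNAs, had 689, 463 and 560 against 2480, 2351 and 2339 (-2.08). IER3, an NF-kB-inducible survival gene, was higher in the p50 knockout, at 1770, 1707 and 1532 against 411, 498 and 480, with 1853 to 1945 in the controls (1.85, SE 0.08, adjusted p = 8.3e-14 by limma). Targets of ATF4 and the unfolded-protein response had 15 higher and 6 lower of 25 (median 0.33). SLC7A5, the large neutral amino acid transporter, had 8444, 6849 and 6927 against 3498, 3848 and 3601, with 8422 to 8880 in the controls (1.02, adjusted p = 4.0e-09 by limma), and the cystine transporter SLC7A11 differed by 0.89. The p53 targets had 10 higher and 9 lower of 27 (median 0.09), among them PPM1D, a phosphatase that dampens p53 (0.90), and CDKN1A, the cell-cycle inhibitor p21, with 7478, 8081 and 7846 against 11836, 11878 and 11937 (-0.61, adjusted p = 8.5e-09 by limma).

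Glycolysis and hypoxia genes had 5 higher and 10 lower of 28 (median -0.08). SLC2A3, the glucose transporter GLUT3, had 317, 274 and 342 in the p50 knockout against 1852, 2257 and 2332, with 194 to 226 in the controls (-2.78, SE 0.13, adjusted p = 4.0e-13 by limma). SLC2A1, GLUT1, had 1959, 1817 and 1880 against 2902, 3426 and 3111 (-0.74), and VEGFA differed by -0.93. Sterol and fatty acid synthesis genes had 8 higher and 2 lower of 24 (median 0.03). MSMO1, an enzyme of cholesterol synthesis, had 2030, 2125 and 2143 in the p50 knockout against 3940, 3119 and 3350 (-0.72). Cytoskeleton and migration genes had 9 higher and 6 lower of 26 (median 0.00). CORO1A, the leukocyte actin regulator coronin, had 24347, 19020 and 20962 against 13265, 13967 and 13264 (0.66), and LSP1, an actin-binding protein of leukocytes, had 3248, 4047 and 3622 against 6656, 7116 and 7128 (-0.94).

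Markers of other cell types summed to far less than those of B cells in all 9 libraries. Single markers could be level, as with COL1A1 at 1570, 1391 and 1213 in the RelB-labelled libraries. The B-cell marker CD79B had 1400, 1424 and 1501 there. The 6 B-cell markers summed to 39495 to 42533 normalised read counts in the p50 knockout, 43606 to 47939 in the RelB-labelled libraries and 42476 to 43613 in the controls, with 1 called higher and 4 called lower in the p50 knockout. The listed T and NK markers summed to 444 to 477 in the p50 knockout, 700 to 772 in RelB-labelled libraries and 412 to 557 in controls, nearly all of it NKG7, while CD3D stood at 0 to 1.63. Monocyte and macrophage markers summed to 631 to 709 in the p50 knockout, 763 to 790 in RelB-labelled libraries and 397 to 430 in controls, nearly all of it CSF1R. Fibroblast and epithelial markers summed to 977 to 1305 in the p50 knockout, 1657 to 1973 in RelB-labelled libraries and 1339 to 1502 in controls, mostly COL1A1 and CDH1, both called lower in the p50 knockout (-0.80 and -0.73). KRT18 stood at 0 to 3.94 over the 9 libraries and CD14 at 0.817 to 3.16. The part of these markers, and of the read shares given above, in the other differences was not tested.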

How the data were processed

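Polyadenylated RNA was sequenced with a directional kit from 1 µg of total RNA, per the labels. Per the submitters' processing notes, STAR 2.5.2b, featureCounts 1.5.1, DESeq2 1.14.1 and GRCh37 were used. The sources used here name neither the annotation release nor whether strand was used, so antisense partners were not separated. The values deposited by the authors are a normalised signal: read counts divided by 1 size factor per library. In a check, all 308790 values (100%) were whole reads to within 0.0001 once that factor was undone. In the 6 libraries 1 read was worth 0.817 to 1.46 units, and depth was 15.2 to 26.6 M reads.

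In R 4.3.3, limma 3.58.1 with an intensity trend was fitted to log2(value + 1) in all 18 libraries and 6 group means, which share 1 estimate of the spread. The contrast was p50 knockout over RelB knockout, two-sided, with Benjamini-Hochberg adjustment over 12381 genes of mean at least 10. Genes were called at an adjusted p of 0.05. Fold changes lie on that scale, which understates changes of low genes. Mean chi-square per gene between replicates was 5.18 to 25.1, above counting error. The count tests edgeR 4.0.16 and DESeq2 1.42.0, other filters, pseudocounts, scalings and left-out libraries were alternatives.

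The comparison, its members and the 34 gene lists (765 of 808 entries matched the table) were chosen with earlier results of these data known. The naming rule took the 5 subunit genes; the 12 highest and 12 lowest fold changes among called genes without overlap between groups and a mean of at least 100 in the higher group; up to 4 called members per list with the smallest p and such a mean; and 6 further genes with the smallest p, 149 genes in all. Further genes are marked as chosen afterwards, or are given as list members that did not pass. Some genes taken by this rule are not reported here. Promoters came from RefSeq on GRCh38.p14.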

Additional observations from a re-analysis of the deposited data

How the results depend on the processing

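Across all settings tried, the number of genes called lay between 5646, when only genes with a mean of at least 100 were tested, and 6998, with a correction for transcript length that was added after the data were seen. It was 6606 with edgeR, 6460 with DESeq2 and 5783 to 6074 when 1 of the 6 libraries was left out. The 742 called genes that differed by 2-fold or more became 299 with a mean of at least 100 and 1211 with no filter, because fewer or more low genes were tested. Between the p50 knockout and the RelB-labelled libraries, replicate numbers showed no pairing. Deviations of same-numbered libraries correlated at -0.02, 0.005 and 0.03. Of these 6 libraries, 1 had its best partner in the other group under its own number. Pairing across the other groups of the series was not tested. A replicate block gave 6823 called genes with 18 libraries, against 6575 without it, and 6816 with 6, against 6805 without it. Without control replicate 3 there were 6812. No scaling moved the median of all genes by more than 0.1 on the log2 scale. Each scaling brings the libraries to a common level, so this cannot show if total RNA differed between the groups. Of 2823 values for named genes, 2819 kept direction and side of the threshold. Apart from the subunit genes, the rule took called genes with extreme fold changes or small p in these same libraries. This agreement therefore partly follows from that choice and does not hold for genes in general. Of all 6575 called genes, 5999 were also called under quantile normalisation and 6569 without control replicate 3. With 1 of the 6 libraries left out, 5621 to 5861 of them were called again. HLA-DRA turned to 0.00135 under quantile normalisation, CYC1 was lost without p50 knockout replicate 1, and REL passed with the 6 libraries alone, with and without the block (adjusted p = 0.013 and 0.011 by limma); the cause was not tested. Of the list medians under the alternatives, 611 stayed within the spread between libraries and 35 moved beyond it. Some list medians close to 0 changed sign: with a mean of at least 100 the germinal-centre median was -0.19 and that of adhesion molecules 0.02, because fewer genes were tested. The mitochondrially encoded median, far from 0, was smaller in size without p50 knockout replicate 2, as given above. Low genes rest on few reads, so their fold changes depend on the pseudocount.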
